A study of Mus musculus with 3 samples.

Results

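The enzymes that carry glucose to pyruvate, exchange pyruvate with lactate and burn it in the citric acid cycle were examined in CA1, the output field of the hippocampus. A list of 46 genes was matched to the probe sets that the platform annotation gives to 1 gene, with array controls left out. Of these genes, 43 had such a probe set, 55 probe sets in all, out of 8251 genes named on the array. Gpi1, the glucose-6-phosphate isomerase gene, Eno1, the widespread enolase, and Gapdh had none and are absent from the counts. For Gapdh the array holds control probe sets and 2 probe sets that the annotation also gives to other loci.

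All 3 arrays belong to 1 group: young male C57BL/6J mice, an inbred strain with no transgene named in the labels, with RNA taken 6 h after contextual fear conditioning, in which a place is paired with foot shock. Training gave 3 cycles of 2 min in a new chamber and a shock of 1 s at 0.5 mA, and 1 min after the last one the mice were put back in their home cages. The samples used here hold no untrained group, so no effect of training can be read from any level below. Whether animals were pooled for an array is not stated in the labels, so p-values measure only the spread between these arrays, which may be partly technical.

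Glycolysis splits glucose into pyruvate in the cytosol, and lactate dehydrogenase interconverts pyruvate and lactate. The pyruvate dehydrogenase complex feeds acetyl-CoA into the citric acid cycle of mitochondria. Many steps have isoenzymes from separate genes whose use differs between tissues: in textbook accounts brain relies on hexokinase 1, aldolase C, enolase 2 and the M form of pyruvate kinase, while skeletal muscle, liver and testis have forms of their own. In brain, astrocytes are held to be more glycolytic and neurons more oxidative.

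The deposited value of a probe set is a signal intensity on a linear scale. The arrays had medians of 176, 177 and 171, and their means were all 500.3 once the top and bottom 2% of values were set aside. A gene was represented by its brightest probe set, and called above threshold when its mean signal exceeded 175, the median of all deposited values, which stands in for a detection call. Probe sets differ in how well they bind, so signals are set against the threshold and between arrays, never between genes. Values are mean ± SD (n = 3 arrays) or are given in the order of arrays 1, 2 and 3. On every array the signal of all 4 CA1 pyramidal markers represented exceeded the threshold, among them the wolframin gene Wfs1 at 2532, 2452 and 2582.

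Of these 43 enzyme genes 30 were above threshold on average, and the same 30 were above it on every array. Across all named genes, 59.1% were above threshold on average and 52.9% on every array. Another 12 enzyme genes were under threshold on every array, and Pcx, pyruvate carboxylase, which makes oxaloacetate from pyruvate, passed on array 3 only, at 111, 170.2 and 188. Its second probe set gave 141, 207 and 43.9, passing on array 2 only. No gene of the list lay close to the line on the upper side. The lowest above it were Mdh1 at 291 ± 52.9 and Idh2 at 329 ± 85.7, and the highest below it were Pcx at 157 ± 40.3 and Gapdhs at 102 ± 28.5.

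**Figure D1:**
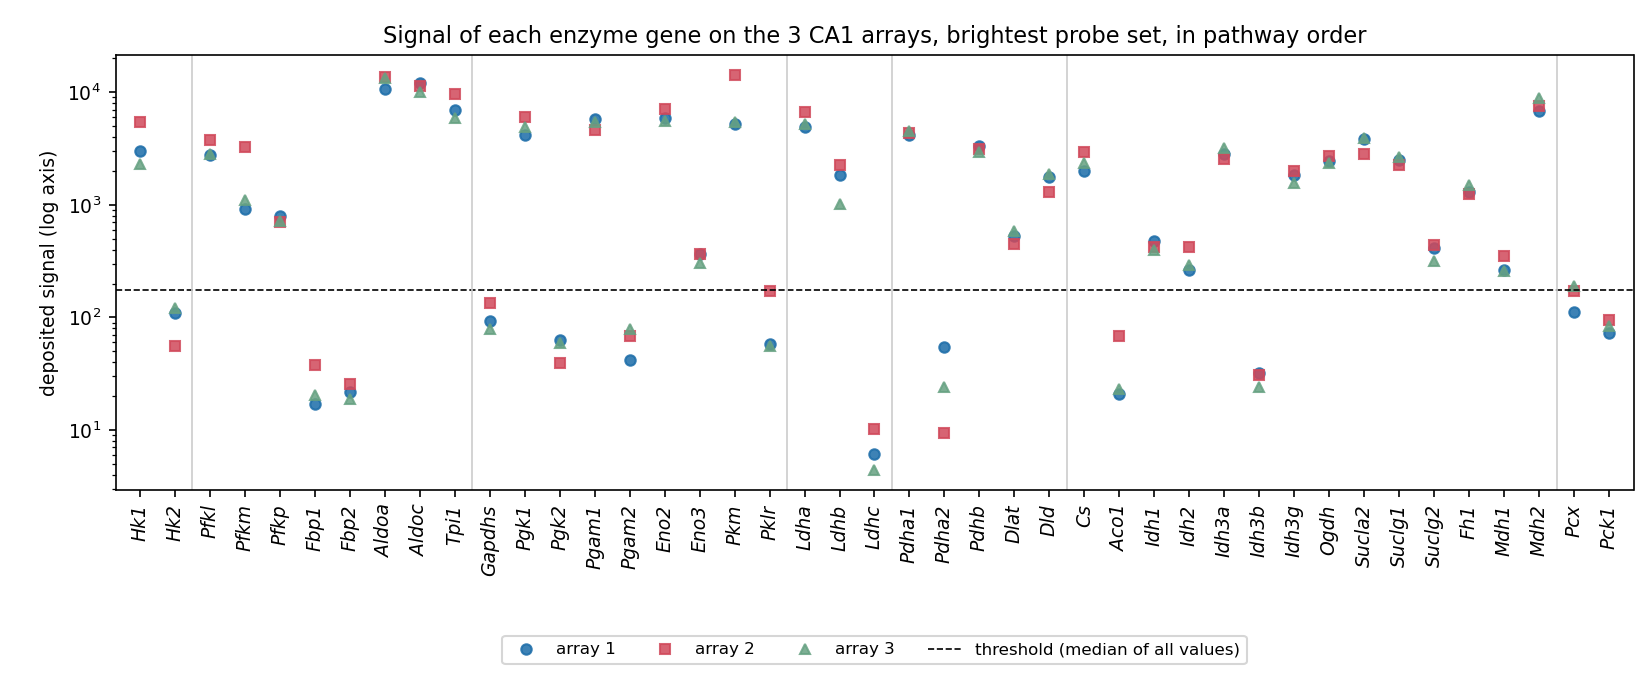
Deposited signal (log axis) of the 43 enzyme genes with a probe set, at the brightest probe set, on arrays 1 (circles), 2 (squares) and 3 (triangles), with vertical lines between pathway steps and a dashed line at the threshold of 175. The 30 genes above the line pass it on all 3 arrays, and Ldhc lies far under it, at 6.93 ± 3.04.

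Nearly every step from glucose to pyruvate had a form above threshold. Hk1, the brain hexokinase that traps glucose as its phosphate, gave 3032, 5458 and 2305. It was highest on array 2 and lowest on array 3. Hk2, the muscle and fat hexokinase, was under threshold on every array at 109, 55.7 and 122, and so was its second probe set, at 15.6 ± 7.30. All 3 phosphofructokinase genes, which encode subunits of the committing step, were above threshold. Pfkp, the platelet form that brain also uses, gave 790.0, 709 and 717, the closest agreement of the family. Pfkl, the liver form, gave 2782, 3769.7 and 2848. Pfkm, the muscle form, gave 922, 3284 and 1097, which set array 2 apart from the others. Fructose bisphosphatase, which runs this step backwards in gluconeogenesis, was under threshold in its liver form Fbp1 at 25 ± 11 and its muscle form Fbp2 at 22.1 ± 3.45.

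Aldoc, the brain aldolase and an astrocyte marker, gave 12169, 11466 and 10028. Aldoa, the aldolase of muscle and most tissues, gave 10793, 13677 and 13358. Its second probe set gave 5247, 4107 and 6816, so the probe sets disagree on where array 2 stands. Both belong to the class that can share sequence within a gene family. Tpi1, triose-phosphate isomerase, gave 6996, 9618 and 5858.

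In the second part of glycolysis Pgk1, phosphoglycerate kinase 1, which makes the first ATP of the pathway, gave 4136, 6073 and 4929.6. Pgam1, the brain-type phosphoglycerate mutase, gave 5805, 4637 and 5447, lowest on array 2, as Pfkp was. Eno2, the neuron-specific enolase, gave 5898, 7035 and 5579.7. Eno3, the muscle enolase, was also above threshold, at 369, 367 and 302. Pkm, whose splice forms M1 and M2 make the pyruvate kinase of muscle and brain, gave 5241, 14255 and 5427 at its brightest probe set. Its second probe set gave 7961, 6923 and 6906, highest on array 1 and without the excess on array 2. On arrays 1 and 3 this second probe set was the brighter, so the other was chosen through its signal on array 2. The annotation used here does not say which splice form each probe set reads. The second one, like those of Aldoa, belongs to the class that can share sequence within a gene family.

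Lactate dehydrogenase is a tetramer of A and B chains in most tissues. Ldha, the muscle-type chain, gave 4945, 6669 and 5276. Ldhb, the heart-type chain that is prominent in neurons, gave 1861, 2272 and 1027, lowest on array 3. A second Ldhb probe set was far under threshold at 10.3 ± 6.08. Ldhc, the sperm chain, was far under threshold on every array at 6.1, 10.3 and 4.4.

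The pyruvate dehydrogenase complex was above threshold in its E1, E2 and E3 genes. The median log2 SD over arrays of these 4 genes was 0.15, against 0.22 for the glycolysis and lactate genes and 0.25 for all genes above threshold. Pdha1, the E1 alpha subunit encoded on the X chromosome, gave 4189.6, 4374 and 4520.4, and Pdhb, the E1 beta subunit, gave 3356, 3125 and 2958. Dlat, the E2 acetyltransferase, gave 532, 451 and 586, and Dld, the E3 dehydrogenase shared with the 2-oxoglutarate complex, gave 1775, 1307 and 1897. A second Dlat probe set was under threshold at 139 ± 30.0, in the same order of arrays. The log2 SD was 0.078 for Pdha1 and 0.073 for Pdhb, but 0.21 for Dlat and 0.31 for Dld. The medians above were not matched for signal level. None of these 4 genes was highest on array 2.

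Of 14 citric acid cycle genes and their cytosolic counterparts, 12 were above threshold on every array. Citrate synthase, Cs, which starts the cycle, gave 1996, 2949 and 2363. The mitochondrial NAD-linked isocitrate dehydrogenase was measured in its catalytic subunit Idh3a, at 2827, 2562 and 3190.1, and its regulatory subunit Idh3g, at 1850.2, 1997 and 1561. Its remaining subunit gene, Idh3b, was under threshold at 28.9 ± 4.25. These subunits act in 1 enzyme, and a signal under the threshold does not show that the transcript was absent. Second probe sets of Idh3a and Idh3g were likewise under threshold, at 7.67 ± 3.77 and 69.3 ± 60.9.

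The NADP-linked isocitrate dehydrogenases gave 475, 423 and 400.2 for the cytosolic Idh1 and 266, 426 and 294 for the mitochondrial Idh2. Ogdh, the E1 subunit of 2-oxoglutarate dehydrogenase, gave 2429.7, 2734 and 2357. In succinate-CoA ligase, Sucla2, the ATP-forming beta subunit typical of brain, gave 3853, 2845 and 3895, Suclg2, the GTP-forming one, 415, 444 and 315, and the shared alpha subunit Suclg1 2481, 2260.0 and 2659.9. The second Sucla2 probe set, at 336, 257 and 352, kept the order of arrays. Fumarate hydratase, Fh1, gave 1301, 1244 and 1498. Malate dehydrogenase was above threshold in its mitochondrial form Mdh2 at 6809, 7552 and 8859 and its cytosolic form Mdh1 at 262, 352 and 259. Aco1, the cytosolic aconitase that doubles as an iron sensor, was under threshold at 21.0, 68.9 and 23.0, as was Pck1, the gluconeogenic phosphoenolpyruvate carboxykinase of liver, at 73.3, 94.3 and 83.1.

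Sorted by textbook tissue, the isoenzymes differed in how many passed the threshold. All 12 brain-type or widespread forms represented were above it on every array, with means from 739 for Pfkp to 12609 for Aldoa. Of 5 muscle forms 2 passed, Pfkm and Eno3, while Hk2, Fbp2 and Pgam2, the muscle mutase at 63.2 ± 19.2, did not. Of 4 liver forms 1 passed, Pfkl, while Fbp1, Pck1 and the liver and red cell pyruvate kinase Pklr did not. Pklr gave 58.2, 172 and 55.4, just short of the line on array 2. None of the 4 testis forms passed on any array: Gapdhs gave 93.3, 134 and 79.4, Pgk2 63.5, 39.4 and 59.2, Pdha2 54.1, 9.5 and 24.3, and Ldhc is given above. Below the threshold neither the order of these genes nor that of the arrays can be read as expression. The tissue types come from textbook knowledge, and several forms, Pfkm and Pfkl among them, are known from many tissues. Aldoa, Ldha and Pkm were counted as brain-type or widespread although muscle uses them too. The counts by tissue therefore depend on these labels.

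Markers of those tissues were read on the same arrays. Of 10 skeletal muscle markers 2 were above threshold on average, Acta1 and Tnnc2, with a summed signal of the list of 1322, 1552 and 1191. Acta1, at 206, 316 and 284, passed on every array, and Tnnc2, at 130, 309 and 151.5, on array 2 only. The muscle creatine kinase gene Ckm gave 255, 145 and 104. Of 9 liver markers with a probe set 0 passed, and the albumin gene Alb gave 108, 97.3 and 151. Of 10 testis markers 2 passed, Tnp1 at 664, 1078 and 780.1 and Odf1 at 164, 234 and 201, while the protamine genes Prm1 and Prm2 gave 26.0 ± 9.49 and 50.7 ± 35.2. Their part in the signals of Pfkm and Eno3 was not tested.

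**Figure D2:**
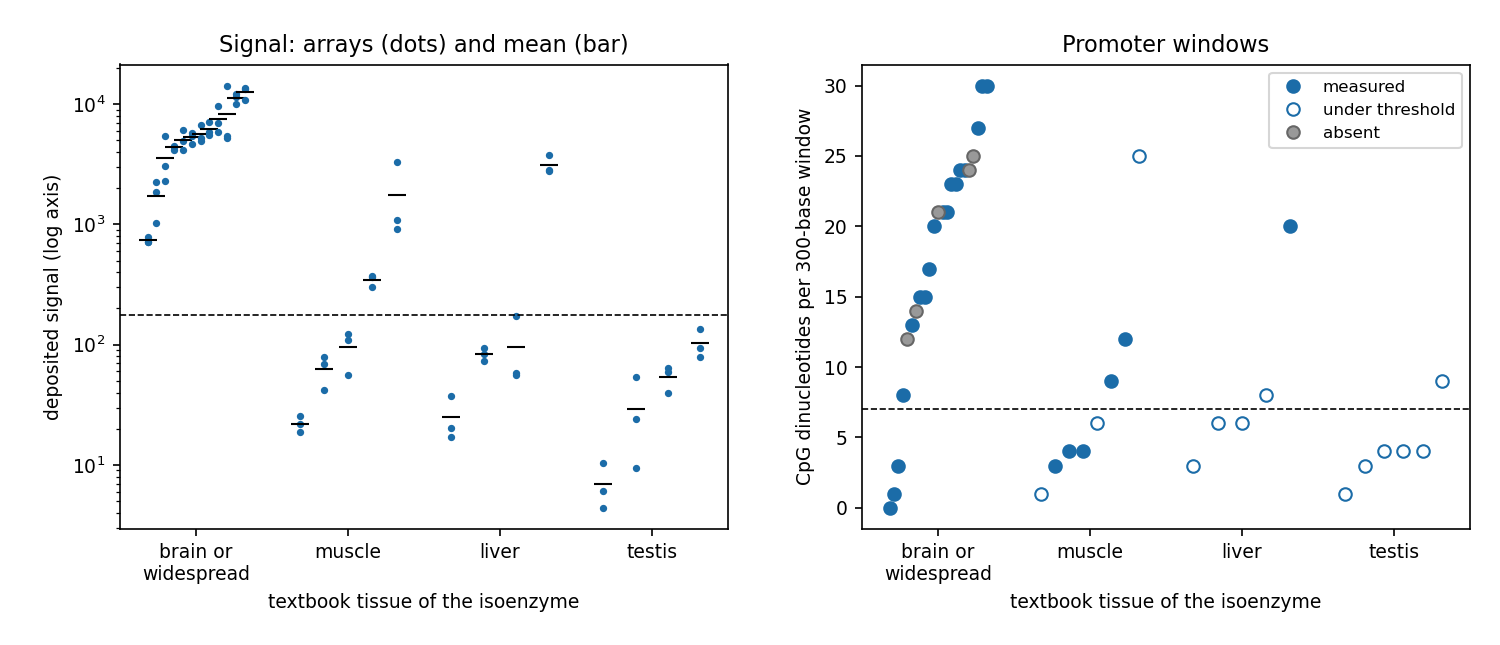
Left, deposited signal (log axis) of isoenzyme genes by textbook tissue, each gene with a dot per array and a bar at its mean, and the threshold of 175 dashed. Right, CpG dinucleotides in each 300-base promoter window of these genes, filled for genes above threshold, open for genes under it and grey for genes absent from the array, with the median of all promoters, 7, dashed: all 6 windows of testis forms hold 9 CpG or fewer.

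The promoters of the isoenzymes differ in a feature the choice of genes did not use. Many promoters of widely expressed genes are rich in CpG dinucleotides, whereas promoters of tissue-specific genes more often are not. RefSeq promoter windows of build GRCm38.p6, from 250 bases before to 50 after a start, matched 45 of the 46 genes with 66 starts. The median number of CpG was 20 over 44 windows of genes above threshold, 6 over 17 windows of genes under it, and 7 over all 32851 windows. By gene, 28 of 29 genes above threshold had a window with more than 7 CpG, against 6 of 13 under threshold and 51% of all genes. The 1 exception above threshold was the muscle enolase Eno3, with 3 CpG. Among genes under threshold, Hk2 had 25 and Idh3b 18. Windows of 3 families with a widespread and a testis form are printed 5′ to 3′ on the gene's strand, because these families contrast in signal, with each CpG in capitals.
Pgk1, chrX:106186850-106187149, plus strand: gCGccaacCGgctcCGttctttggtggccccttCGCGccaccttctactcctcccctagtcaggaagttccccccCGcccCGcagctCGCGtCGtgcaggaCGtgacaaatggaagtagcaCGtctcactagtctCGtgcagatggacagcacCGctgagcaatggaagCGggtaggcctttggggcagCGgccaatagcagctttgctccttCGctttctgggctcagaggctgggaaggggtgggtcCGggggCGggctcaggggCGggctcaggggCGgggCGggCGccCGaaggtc
Pgk2, chr17:40208560-40208859, minus strand: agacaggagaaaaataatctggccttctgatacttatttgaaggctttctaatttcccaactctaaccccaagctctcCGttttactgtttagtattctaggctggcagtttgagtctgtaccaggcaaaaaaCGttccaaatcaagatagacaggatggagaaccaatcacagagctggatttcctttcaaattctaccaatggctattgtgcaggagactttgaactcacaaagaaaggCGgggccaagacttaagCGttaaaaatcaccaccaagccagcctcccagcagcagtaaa
Pdha1, chrX:160138381-160138680, minus strand: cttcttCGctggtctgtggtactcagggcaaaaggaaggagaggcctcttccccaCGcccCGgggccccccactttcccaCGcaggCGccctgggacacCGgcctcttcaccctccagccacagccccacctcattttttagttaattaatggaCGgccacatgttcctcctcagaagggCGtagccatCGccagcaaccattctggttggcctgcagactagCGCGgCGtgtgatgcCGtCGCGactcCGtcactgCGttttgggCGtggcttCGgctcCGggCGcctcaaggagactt
Pdha2, chr3:141212306-141212605, minus strand: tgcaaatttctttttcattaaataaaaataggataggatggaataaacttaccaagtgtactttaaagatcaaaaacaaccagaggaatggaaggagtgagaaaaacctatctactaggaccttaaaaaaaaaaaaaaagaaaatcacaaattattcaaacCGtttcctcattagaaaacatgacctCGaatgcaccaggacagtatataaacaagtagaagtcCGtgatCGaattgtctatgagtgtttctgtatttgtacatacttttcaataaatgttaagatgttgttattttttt
Ldha, chr7:46845554-46845853, plus strand: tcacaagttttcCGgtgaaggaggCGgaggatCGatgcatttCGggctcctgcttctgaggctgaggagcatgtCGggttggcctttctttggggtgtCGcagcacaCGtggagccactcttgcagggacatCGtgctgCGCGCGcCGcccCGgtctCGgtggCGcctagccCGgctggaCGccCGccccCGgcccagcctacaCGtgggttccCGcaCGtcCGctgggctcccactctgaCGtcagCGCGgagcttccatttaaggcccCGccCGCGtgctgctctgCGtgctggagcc
Ldhb, chr6:142507908-142508207, minus strand: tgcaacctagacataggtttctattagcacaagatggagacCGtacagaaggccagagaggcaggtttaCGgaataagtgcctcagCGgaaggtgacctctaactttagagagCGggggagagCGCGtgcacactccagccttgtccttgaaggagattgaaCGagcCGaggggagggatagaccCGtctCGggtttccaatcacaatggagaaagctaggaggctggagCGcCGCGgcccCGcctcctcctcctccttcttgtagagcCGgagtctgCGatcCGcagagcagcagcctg
Ldhc, chr7:46861013-46861312, plus strand: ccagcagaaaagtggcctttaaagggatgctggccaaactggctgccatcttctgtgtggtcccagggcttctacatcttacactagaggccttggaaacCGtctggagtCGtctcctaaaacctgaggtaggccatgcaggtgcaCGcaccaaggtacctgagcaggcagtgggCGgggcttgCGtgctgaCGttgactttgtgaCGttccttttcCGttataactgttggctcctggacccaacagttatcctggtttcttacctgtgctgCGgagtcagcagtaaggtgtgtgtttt

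The Pgk1 window holds 24 CpG and that of Pgk2, a testis gene thought to have arisen by reverse transcription of Pgk1 RNA, holds 4. The counts are 21 for Pdha1 and 4 for Pdha2, which has a like history. In the lactate dehydrogenase family they are 30 for Ldha, 17 for Ldhb and 9 for Ldhc. For Ldha and Ldhc the first of 2 starts is shown, and the others hold 13 and 3. These are properties of the sequence, and no methylation was measured.

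Motifs were searched on both strands of the same windows. ACGTG, the core of the hypoxia response element through which HIF-1 drives glycolytic genes, was present for 17 of 45 genes (37.8%), against 21.8% of all genes with a window. It was found for Hk1, Pfkm, Aldoa, Aldoc, Pgk1, Pgam1, Pkm and Ldha, for Pdhb, Idh3g, Ogdh and Mdh1, for Gapdh, and for Hk2, Fbp2, Gapdhs and Pcx, which were under threshold. The E-box CACGTG, which contains that core, was present for 5 of 45 genes (11.1%), against 8.09%. The cAMP response element TGACGTCA was present for 3 genes, Ldha, Ogdh and Mdh2 (6.67%), against 2.03%. The GC box GGGCGG was present for 28 genes (62.2%), against 38.2%, and the TATA box TATAAA for 3, Eno2, Pklr and Pdha2 (6.67%), against 15.7%. The 6 windows of Ogdh overlap in part, so genes rather than windows were counted. Every motif here except TATAAA holds a CpG, and windows of the list had a median of 17 CpG, against 7 over all. The list also had 66 windows for 45 genes, against 32851 for 27025, and any window of a gene could count. The shares were adjusted for neither, so they do not show that the motifs exceed what base composition gives. Hif1a, the gene of the HIF-1 alpha subunit, was above threshold at 2582, 2317 and 3004.

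The genes were then compared between arrays. For this comparison the arrays were brought to 1 common median, floored and taken to log2, and each array was set against the mean of the others. Of 14 glycolysis and lactate genes above threshold, 12 were higher on array 2 than the mean of the others, as were 44.5% of all genes above threshold, and 9 were highest there. The median log2 difference was 0.38, and the list as a whole was not tested. The exceptions were Pgam1 at -0.31 and Pfkp at -0.11. With the probe sets of each gene averaged, 11 were higher there. The median was -0.18 on array 1 and -0.18 on array 3. For the 16 pyruvate dehydrogenase and citric acid cycle genes the medians were -0.02, -0.05 and 0.07, and 6 of 16 were highest on array 2, among them Idh2 at 0.58, Cs at 0.41 and Mdh1 at 0.41. The difference between the lists was not tested. Over all 4876 genes above threshold the medians were 0.0039, -0.06 and 0.06, and 32.6% were highest on array 2. Of all 30 enzyme genes, 6, 15 and 9 were highest on arrays 1, 2 and 3, against 28.8%, 32.6% and 38.6% of all genes.

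**Figure D3:**
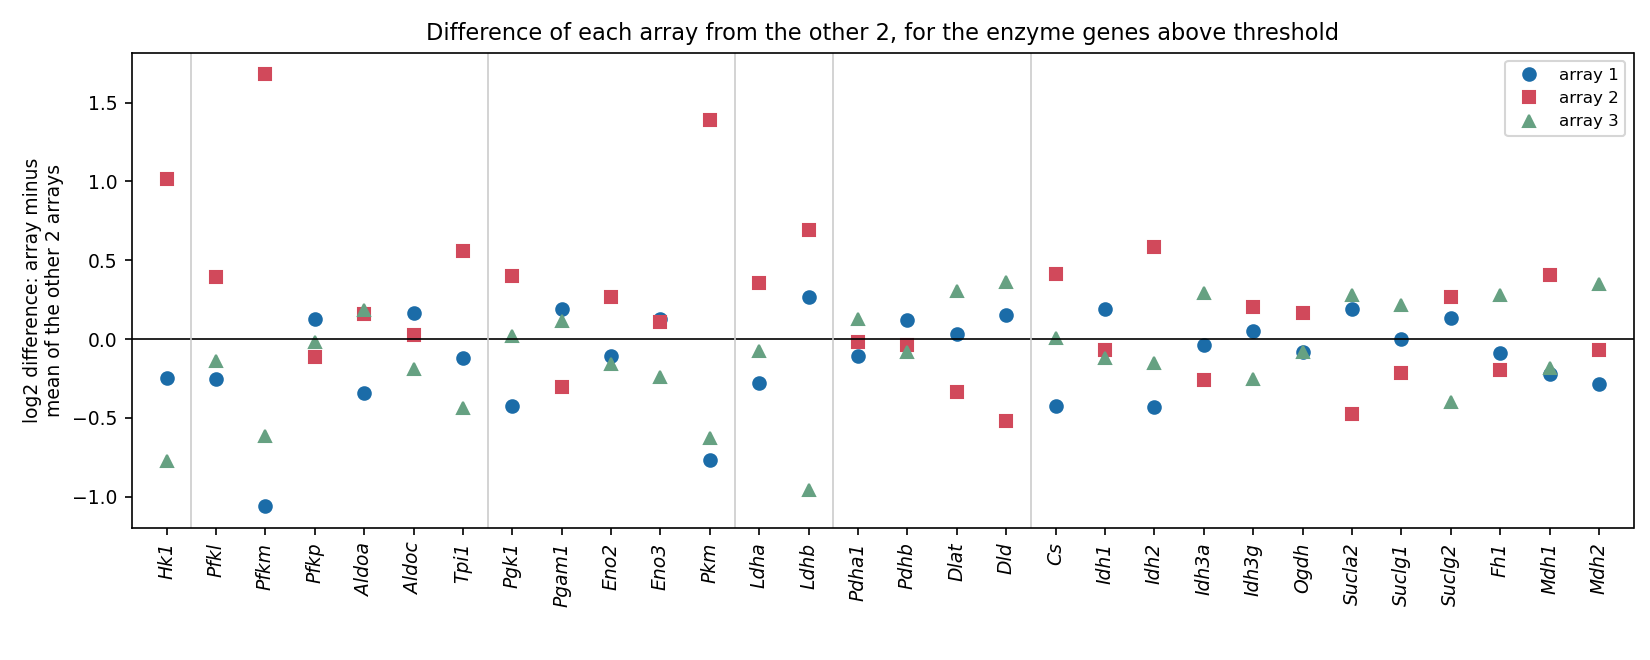
Log2 difference of each array from the mean of the other 2 for the 30 enzyme genes above threshold, in pathway order from Hk1 to Mdh2, with vertical lines between steps. Squares of array 2 lie above 0 for 12 of 14 glycolysis and lactate genes (44.5% of all genes above threshold), up to 1.68 for Pfkm. They lie on both sides of 0 for the pyruvate dehydrogenase and citric acid cycle genes, which include the cytosolic Idh1 and Mdh1.

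The difference was largest in 4 genes, the same 4 whose highest and lowest arrays were more than 2-fold apart. Array 2 exceeded the mean of the others 3.25-fold for Pfkm, 2.67-fold for the brightest probe set of Pkm, 2.05-fold for Hk1 and 1.57-fold for Ldhb. The brightest probe set of Pkm owes its choice to array 2, where the other had a log2 difference of -0.13. Only for Pfkm and Pkm were arrays 1 and 3 within 0.5 log2 of each other while array 2 was more than 2-fold from both, a pattern seen in 2.28% of all genes. For Hk1 and Ldhb array 3 was also low. Of all genes, 10.2% had a range over 2-fold, against 4 of the 30 enzyme genes.

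None of the 30 genes varied between arrays beyond other probe sets of their level by the limma variance test, adjusted over all 6218 probe sets above threshold. That test called 0.0161% of them, the 1 probe set of the choroid plexus gene Ttr. At an unadjusted p under 0.05 there were 4 enzyme genes, again Pfkm, Pkm, Hk1 and Ldhb, against 4.57% of all genes. Their limma adjusted p was 0.515, 0.559, 0.861 and 0.899. The calls depend on array 3. Without it the test called 45 of 6218 probe sets, against 1 with all arrays. Pfkm and Pkm were among the 45, with limma adjusted p of 0.00676 and 0.0175. The limma adjusted p ranged from 0.00676 to 0.982 for Pfkm over 13 alternatives and from 0.0175 to 0.992 for Pkm over 12. The prior that is not robust was left out for both, and plain probe sets only for Pkm. Without array 2 the log2 ranges shrank from 1.83 to 0.30 for Pfkm, from 1.44 to 0.094 for Pkm and from 1.19 to 0.35 for Hk1, and only from 1.10 to 0.81 for Ldhb. With all probe sets of Pkm averaged its range was 0.65, and its unadjusted limma p was no longer under 0.05.

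The Gapdh control probe sets, which read the 5′, middle and 3′ parts of 1 glycolytic transcript, differed between arrays according to the part read. The 3′ part gave 37342, 33952 and 38102, with array 2 lowest. The middle part gave 18577, 33709 and 19614, and the 5′ part 9368, 28001 and 9670.0, with array 2 highest. Signal at the 3′ end over that at the 5′ end was thus 3.99, 1.21 and 3.94. The 2 Gapdh probe sets shared with other loci were not highest on array 2, with 22588, 16045 and 24125 for one and 373, 348 and 229.6 for the other. For the actin gene Actb the 3′ to 5′ ratio was 2.57, 1.86 and 3.50. This ratio is a common guide to RNA integrity and to the length of the copies made in labelling. The part it has in the signals of Pfkm, Pkm and Hk1 was not tested, since the position of their probes was not analysed here. The 3′ control of Pcx gave 547, 894 and 585, above threshold, while its other 3 control parts were under it on average.

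**Figure D4:**
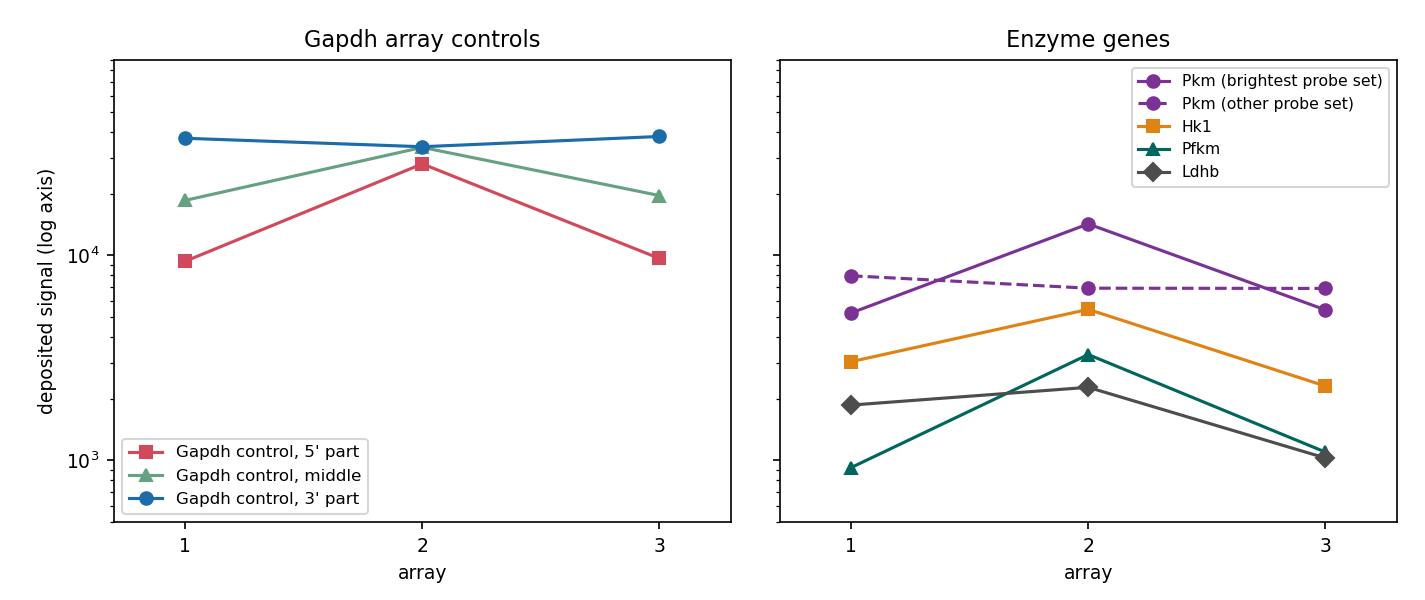
Deposited signal (log axis, shared) on arrays 1, 2 and 3 for the 3 Gapdh control parts, left, and for Pkm (solid, brightest probe set; dashed, the other), Hk1, Pfkm and Ldhb, right. Lines only join values of 1 probe set: the 5′ part of Gapdh has 28001 on array 2 against 9368 and 9670.0, and its 3′ part is nearly level.

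Summed marker signals are given for the cell types the tissue could hold. The summed signal of 6 choroid plexus markers was 3879, 7580.2 and 2360.1, with 4 of 6 above threshold on average and all of those 4 highest on array 2. Ttr, at 1334, 4257 and 94.2, carried much of it. Without Ttr, a sum taken after its values were seen, the others gave 2545, 3324 and 2266, still highest on array 2. Igf2, at 1765, 2198 and 1582, makes up most of that sum. Under threshold on average, Folr1 gave 54.5, 196 and 39.9, highest on array 2, and Aqp1 160.4, 55.2 and 127.0, lowest there. The 4 CA1 pyramidal markers summed to 11074, 8772 and 10629, lowest on array 2. That of 5 astrocyte markers was 25218, 30687 and 21675, and that of 6 neuron markers 37312, 37966 and 34876, all of them above threshold. Apoe, a lipid carrier at 20985, 26794 and 17963, makes up most of the astrocyte sum, and Snap25, a synaptic fusion protein at 20869.8, 19233 and 19240.4, most of the neuron sum. The genes of each list differed. Of the 5 astrocyte genes 3 were highest on array 2: Apoe, Aqp4 at 1072, 1264 and 531, and Slc1a2 at 361, 474 and 282. Gfap, at 2049.6, 1419.9 and 2144, was lowest there. So was S100b, though nearly level at 749.9, 735 and 756. Of the 6 neuron genes 4 were highest on array 2. Among them were the synaptic vesicle genes Syt1, at 1187, 1991 and 797, and Syp, at 840.2, 1631 and 661. Snap25 was lowest there, and so was Camk2b, at 8809, 8578 and 9133. The 5 oligodendrocyte markers summed to 23263, 24586 and 23409. Of 4 erythrocyte markers with a probe set only Hba-a1 passed, with sums of 2568, 2394 and 2381. The part of tissue makeup in the glycolytic difference was not tested, and more cells of a type cannot be told apart from more RNA per cell.

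Within families, the ratio of isoenzymes taken within an array varied between arrays. The log2 ratio of Pfkm to Pfkp spanned 1.99 over the arrays, a 3.97-fold change, and that of Pfkl to Pfkm 1.39. The Ldha to Ldhb ratio spanned 0.95, highest on array 3. The Sucla2 to Suclg2 ratio spanned 0.95 as well, lowest on array 2, and the Idh1 to Idh2 ratio 0.85. The ratios of Eno2 to Eno3 and of Aldoa to Aldoc spanned 0.26 and 0.59. With 3 arrays of 1 group these spans have no test, and by themselves they show unequal change, not which partner moved. Taken singly, Pfkm had a log2 range of 1.83 against 0.16 for Pfkp, and Ldhb 1.10 against 0.43 for Ldha.

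Other genes of glucose use were read in the same way. Among transporters 3 of 7 with a probe set were above threshold: Slc2a1, the glucose transporter of brain vessels and glia, at 358, 402 and 363, Slc2a3, that of neurons, at 532, 672 and 477, and Bsg. Basigin, the partner protein of lactate transporters, gave 1769, 5365 and 1599, with a limma adjusted p of 0.515. All 3 were highest on array 2, as were 32.6% of all genes above threshold, though Slc2a1 had a log2 range of only 0.16. The lactate transporter genes Slc16a1 and Slc16a7 were under threshold, at 72.3 ± 28.9 and 16.6 ± 10.4. Of 9 further isoenzyme and cycle genes 8 were above threshold on every array, among them the succinate dehydrogenase genes Sdha at 499, 743 and 770.4 and Sdhb at 3790.3, 4837 and 3604.

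Regulators and glycogen genes above threshold were lowest on array 2. The pyruvate dehydrogenase kinase genes Pdk1, at 330.4, 237 and 404, and Pdk3, at 1219.5, 929 and 1452, whose products switch the complex off, were so, as was Hif1a. These were the 3 of 7 regulators above threshold. All 4 glycogen genes above threshold of 8 with a probe set were lowest on array 2, where 43.1% of all genes were. Glycogen synthase Gys1 gave 931, 596 and 992, the primer gene Gyg 267, 168 and 267, and Ugp2, which makes the sugar donor, 589, 281 and 427. All 7 pentose phosphate genes represented were above threshold on average, with Pgd at 260.1, 452 and 319 and H6pd at 1489, 1369.9 and 1516.

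Of 10 genes of redox shuttles and side branches 9 were above threshold on every array. The glycerol phosphate shuttle genes gave 952, 1199 and 1279 for the cytosolic Gpd1 and 4041, 2648 and 1901 for the mitochondrial Gpd2, which was highest on array 1. The 6 lists hold 3 transporters, 8 further isoenzyme and cycle genes, 3 regulators, 4 glycogen, 7 pentose phosphate and 9 shuttle genes above threshold. Of these genes 2, Bsg and Gpd2, had an unadjusted limma p under 0.05, against 4.57% of all genes above threshold. After adjustment over all probe sets 0 of them passed.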

How the data were processed

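The files used hold 1 signal intensity per probe set and array for 3 arrays, on a linear scale, as deposited by the authors. How the authors computed and scaled the intensity values is not given in the sources used here. All 3 columns were mapped to samples and 0 others were present. Of 12488 probe sets, 66 array controls were left out, and 10833 of the other 12422 had 1 gene, named through the platform annotation with symbols updated by Entrez identifier to GRCm38.p6. A further 396 had several genes and 1193 none.

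For comparisons between arrays, signals were multiplied by 0.991, 0.987 and 1.02 to a common median, floored at 47.5, the 25th percentile of all values, and log2-transformed. For the variance test (limma 3.58.1, run in R 4.3.3), probe-set variances were compared with a prior that follows intensity and resists outliers (fitFDistRobustly, with 0.05 and 0.1 of the tails winsorised), with upper-tail F probabilities Benjamini-Hochberg adjusted over 6218 probe sets and a threshold of 0.05. It was tested on simulated data. Summaries used Python 3.11.15. Precision is limited by the number of arrays.

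Every gene of the list is named. In the related lists the first 2 genes above threshold and any with a range over 2-fold are named, and others named there were chosen after their values were seen. The genes and lists were chosen with earlier results of these data known. The alternatives were no scaling, quantile normalization, cyclic loess, other floors and thresholds, plain probe sets only, averaged probe sets, a prior that is not robust, and leaving out each array.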

Additional observations from a re-analysis of the deposited data

How the results depend on the processing

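Over 14 alternatives, 148 of 173 recomputed summary values stayed within the spread used here: 1.5 times for counts, and otherwise 1 SD. For differences this was the SD over arrays of the list's own level, 0.21 for glycolysis and 0.041 for the other list. For the median log2 SD, 0.2144, it was the SD over enzyme genes, 0.2122. These limits are wide for the glycolysis difference and the median SD, and the other floors changed no summary value. The count of 148 is therefore a weak check. The glycolysis difference on array 2 stayed above 0 in each setting with that array, from 0.21 with no threshold to 0.47 with cyclic loess. The 12 of 14 genes higher there became 10 to 15, a count chosen after seeing the data. It was 10 of 14 without array 3. The 15 came at the 25th percentile and with no threshold, where 37 and 43 enzyme genes entered in place of 30. The share of all genes was not recomputed for these settings. Leaving out an array in turn gave glycolysis differences of 0.29 to 0.38 on array 2, -0.38 to 0.042 on array 1 and -0.29 to -0.042 on array 3. For the pyruvate dehydrogenase and citric acid cycle genes, cytosolic Idh1 and Mdh1 included, the medians are small and changed sign. On array 3 they were 0.020 without scaling, -0.0097 with quantile normalization and -0.035 with cyclic loess. They were 0.16 at the threshold of the 75th percentile, 0 with no threshold and 0.013 for plain probe sets. On array 2 they were 0.043 with cyclic loess and -0.0075 at the 75th percentile. Without single arrays they were -0.14 to 0.0072, -0.034 to -0.0072 and 0.034 to 0.14 on arrays 1, 2 and 3. The count of enzyme genes highest on array 1 was 12 with no threshold, which adds 13 genes, and with 2 arrays left the counts were 12 to 13, 18 to 19 and 11 to 17 for arrays 1, 2 and 3.

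The limma variance test called 0 probe sets with quantile normalization, cyclic loess, the higher threshold, no threshold or the plain prior, where 328, 336, 178, 1194 and 333 had an unadjusted p under 0.05, and 6 at the 25th percentile. Without single arrays it called 0 to 45, and 0 to 2 enzyme genes; without array 2, where it called 0, 305 had an unadjusted p under 0.05. With no threshold 0 enzyme genes passed, and Pgk2, Pdha2 and Aco1 had an unadjusted p under 0.05 in place of the 4 genes of the main setting. The causes were not tested. No paired analysis was possible because there is only 1 group. Signals near or under the threshold limit what can be said of Pcx, Pklr and the testis forms.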
